A study of Mus musculus with 16 samples.

Results

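The cytochrome P450 genes of families 1 to 4 were followed in mouse kidney RNA. They were taken from the gene count table by symbol, as Cyp followed by a family number from 1 to 4, a letter and a number. Pseudogene symbols ending in -ps were left out, as were Cyp4a10 and Cyp4a14, and at least 100 counts over the 16 libraries were required. Of 116 genes with such a symbol, 34 were pseudogene symbols and 80 remained after both exclusions. Of these 80, 55 reached the minimum and 25 did not, 8 of them with 0 counts in every library. The 55 members fell into 18 subfamilies and were read among 25408 genes tested, of 57186 in the table. The members nearest above the minimum were Cyp2c40 with 113 summed counts and Cyp2c54 with 117, and the nearest gene below it was Cyp2g1 with 68.

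Kidney RNA of 16 male mice on the C57BL/6J background was sequenced in 4 groups of 4. All mice were Elmo1H/H, a modified allele that raises Elmo1 expression, so the controls carried it too. Non-diabetic mice were Ins2+/+ without (ND_C) or with (ND_B12) vitamin B12, and diabetic mice were Ins2Akita/+ without (D_C) or with (D_B12) B12. Ins2Akita/+ encodes a misfolded proinsulin that harms β-cells and lowers insulin from a young age. B12 in drinking water, 10 mg/kg each day, began when mice were 8 weeks old and lasted for 16 weeks by the labels and for 8 weeks by the methods of the study, which took kidneys at 16 weeks of age. Library totals ran from 65271308 to 91771136 estimated counts.

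Cytochrome P450 enzymes are membrane-bound heme proteins that insert oxygen from molecular oxygen into their substrates, with electrons supplied by the reductase encoded by Por. Families 1 to 3 oxidise drugs, steroids and polyunsaturated fatty acids, and family 4 hydroxylates fatty acids at or near their methyl end. In the kidney, where the proximal tubule holds much of the P450, products of arachidonic acid act on vessel tone and sodium transport, and in mice several of these genes are expressed more highly in males under androgen. In whole-kidney RNA, fewer cells of a type and less RNA per cell cannot be told apart.

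The identity of some libraries was in doubt. Group means given with the study were matched better by other sets of libraries than by the labels. In those sets the library labelled D_C 1 stood among non-diabetic and the library labelled ND_B12 4 among diabetic kidneys, the treatments of the diabetic groups were exchanged, and ND_C 3 and ND_B12 1 changed places between the non-diabetic groups. In all, 11 of the 16 libraries stood in another group than their label gives. Groups here are those of the labels throughout. The B12 comparisons in both diabetic states, and the diabetes comparisons within 1 treatment, depend on them. For diabetes the counts of called members are given with and without the libraries labelled D_C 1 and ND_B12 4, a choice made after the data had been seen, and members called without that pair are named. The library names also carry a date, and only the dates at days 14 and 21 after the first held libraries of more than 1 group. Date and group can therefore hardly be told apart.

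Sequences of the genes on which the results turn are shown first, to place the members that moved together and those that moved apart. The 250 bases upstream of the annotated start (GRCm39, GENCODE vM39, written 5′ to 3′ on the strand of the gene) were searched on both strands for 6 short motifs. The core of an aryl hydrocarbon receptor site was read as GCGTG. An E-box, the site of clock and other bHLH factors, was read as CACGTG. For a D-box, which binds PAR bZIP factors, the letters were TTATGNAA. A half-site of nuclear receptors such as PPARα and CAR was read as AGGTCA. The half-site of steroid receptors was read as AGAACA. The last of the 6, the TATA box, was read as TATAAA. None of the 6 contains another, and matches are in capitals. Cyp4b1 (chr4:115504922-115505171, minus strand) and Cyp4a12a (chr4:115155993-115156242, plus strand) were lower in most diabetic libraries. Cyp4a31 (chr4:115420568-115420817, plus strand), between them on the chromosome, was higher in most of the same libraries. Cyp2d12 (chr15:82438996-82439245, plus strand) had the largest fold change among the members called for diabetes averaged over treatments once the doubtful libraries were left out. Cyp2j5 (chr4:96552452-96552701, minus strand) and Cyp4v3 (chr8:45786254-45786503, minus strand) passed the adjusted test.
Cyp4b1: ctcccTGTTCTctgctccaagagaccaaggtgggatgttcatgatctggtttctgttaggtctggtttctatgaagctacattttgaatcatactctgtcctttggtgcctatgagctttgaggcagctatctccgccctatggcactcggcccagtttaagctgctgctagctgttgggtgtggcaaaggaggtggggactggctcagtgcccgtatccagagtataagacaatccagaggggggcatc
Cyp4a12a: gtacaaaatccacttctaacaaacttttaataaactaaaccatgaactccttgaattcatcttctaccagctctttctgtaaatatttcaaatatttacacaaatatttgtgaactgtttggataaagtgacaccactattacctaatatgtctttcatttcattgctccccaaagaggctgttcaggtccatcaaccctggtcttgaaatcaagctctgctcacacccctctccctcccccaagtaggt
Cyp4a31: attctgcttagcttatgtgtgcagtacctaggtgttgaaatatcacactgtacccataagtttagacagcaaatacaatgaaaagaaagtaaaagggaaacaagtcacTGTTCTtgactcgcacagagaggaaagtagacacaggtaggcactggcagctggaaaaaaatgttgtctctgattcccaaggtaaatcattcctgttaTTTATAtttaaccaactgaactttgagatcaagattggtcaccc
Cyp2d12: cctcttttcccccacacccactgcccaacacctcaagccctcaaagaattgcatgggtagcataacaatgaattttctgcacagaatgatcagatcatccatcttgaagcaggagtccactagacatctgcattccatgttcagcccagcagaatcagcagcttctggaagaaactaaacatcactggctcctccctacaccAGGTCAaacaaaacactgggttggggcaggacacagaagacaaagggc
Cyp2j5: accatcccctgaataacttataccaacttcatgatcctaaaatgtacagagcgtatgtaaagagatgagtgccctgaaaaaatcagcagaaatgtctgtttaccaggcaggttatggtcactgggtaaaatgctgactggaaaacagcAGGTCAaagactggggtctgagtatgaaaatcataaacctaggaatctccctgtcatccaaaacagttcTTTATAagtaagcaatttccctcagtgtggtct
Cyp4v3: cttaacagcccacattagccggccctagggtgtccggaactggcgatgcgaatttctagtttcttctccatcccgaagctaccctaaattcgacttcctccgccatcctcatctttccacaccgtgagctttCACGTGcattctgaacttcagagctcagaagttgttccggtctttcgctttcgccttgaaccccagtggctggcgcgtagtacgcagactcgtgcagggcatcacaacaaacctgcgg
The window of Cyp4a12a held none of the 6 motifs. Those of Cyp4b1 and Cyp4a31, which moved in opposite directions, each held a steroid receptor half-site on the minus strand, beginning at position -245 in Cyp4b1 and -142 in Cyp4a31. This half-site occurred upstream of 14 of the 55 members (25.5%) and of 14.3% of 21770 protein-coding genes. Cyp4v3 was the single member with an E-box, which 6.26% of all windows held. The aryl hydrocarbon receptor core was found in 10 members (18.2%) and in 31.2% of all windows, with 4 matches upstream of Cyp1a1, a classical target of that receptor.

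Closely related members can share reads. By coding sequence, 11 of the 55 members had another member at 95% identity or more. Their separate counts depend on how the authors' counting split shared fragments. Missing length counted as difference in this measure. Cyp4a32, with 1212 coding bases beside 1530 in Cyp4a31, was scored at 354 differing positions and 76.9% identity, and so fell outside the 11. Likeness over their shared part was not measured, so Cyp4a31 and Cyp4a32 may share reads too. Cyp4a12a and Cyp4a12b were 98.6% identical over 1527 coding bases, and Cyp2a4 and Cyp2a5 were 98.5% identical over 1485. The stretch of 60 coding bases around the codon of the heme-binding cysteine, which starts at base 31 of the stretch, shows how close the subfamilies are. Capitals mark the bases at which Cyp4a12a and Cyp4a31, and then Cyp2d12 and Cyp2d9, differ.
Cyp4a12a: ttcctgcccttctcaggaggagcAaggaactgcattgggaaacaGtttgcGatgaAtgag
Cyp4a31: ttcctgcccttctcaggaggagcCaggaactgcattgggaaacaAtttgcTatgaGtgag
Cyp2d12: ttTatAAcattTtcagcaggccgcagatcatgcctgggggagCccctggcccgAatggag
Cyp2d9: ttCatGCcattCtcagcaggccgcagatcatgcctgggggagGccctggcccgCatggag
The first pair differed at 4 and the second at 6 of the 60 bases. Cyp4a12b had the same bases as Cyp4a12a in this stretch, and Cyp4a32 the same as Cyp4a31. Over the whole coding sequence Cyp4a12a and Cyp4a31 were 80.4% identical and Cyp2d12 and Cyp2d9 92.2%. In addition 27 members overlapped another annotated gene. The 3′ ends of Cyp4a32 (chr4:115458134-115479704, plus strand) and Cyp4b1 (chr4:115476281-115504999, minus strand) overlap, and the strand setting of the counting was not given in the sources used here.

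A few members carried most of the P450 RNA. Compared per length, as CPM (counts scaled to a fixed library total) divided by transcript length in kilobases, Cyp4b1 was the highest at 1186 on average over 16 libraries. It was followed by Cyp2e1 at 635, Cyp2j5 at 467 and Cyp2a4 at 183, and these 4 held 77.5% of the summed level of all members. Cyp4b1 is a family 4 enzyme that also activates protoxicants, Cyp2e1 oxidises ethanol, acetone and small solvents, Cyp2j5 is a renal arachidonic acid epoxygenase and Cyp2a4 is a steroid hydroxylase. By subfamily, Cyp4b held 37.2% of the summed level, Cyp2j 20.1%, Cyp2e 19.9%, Cyp2a 7.71%, Cyp4a 7.17% and Cyp2d 5.9%. The other 12 subfamilies ranged from 0.408 for Cyp2t to 25.4 for Cyp4f in summed CPM per kilobase. At the low end, 20 members averaged under 50 normalized counts (counts divided by a size factor for the library) and 15 were at 0 in at least 1 library.

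**Figure D1:**
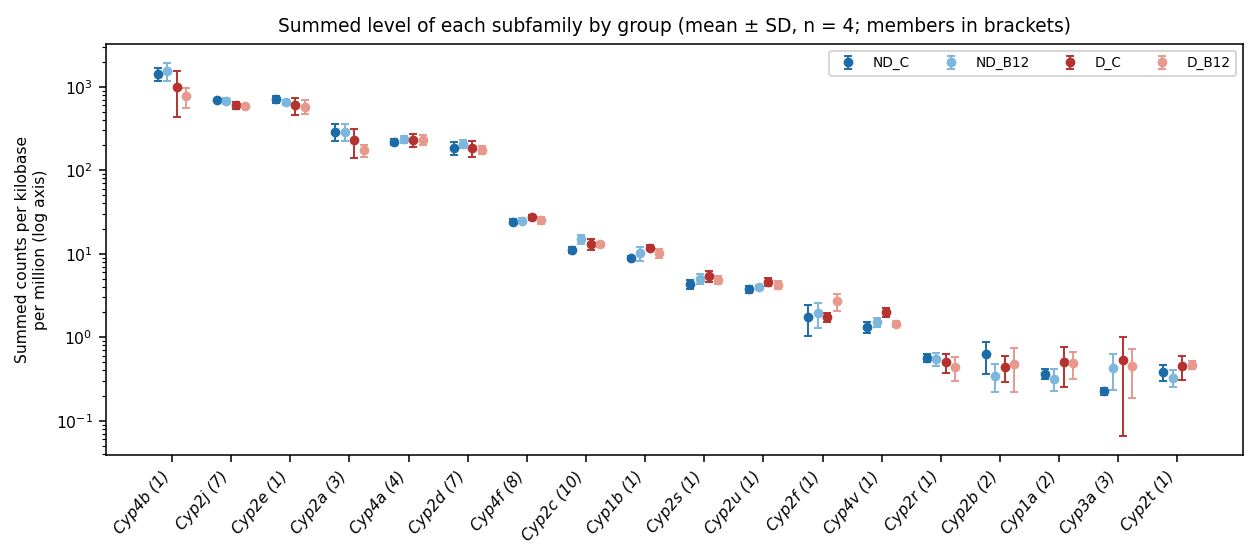
Summed level of the members of each subfamily, in CPM per kilobase of transcript on a log axis, for the 4 labelled groups. Points are means and bars SD over 4 libraries. Cyp4b ranged from 770 in D_B12 to 1554 in ND_B12, while Cyp4a stayed between 218 and 234.

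The sums by subfamily are given as a description, with no test. The Cyp4b sum, which is Cyp4b1 alone, was 216165 ± 37300 normalized counts in ND_C and 237206 ± 59533 in ND_B12, against 142063 ± 73954 in D_C and 113790 ± 30637 in D_B12 (SD, n = 4). Its diabetic mean was 0.564 of the non-diabetic mean, and 0.479 without D_C 1 and ND_B12 4. The Cyp2a sum had a ratio of 0.669, the Cyp2j sum 0.838 and the Cyp2e sum 0.842. The Cyp4a sum had a ratio of 0.967, with 2 members lower and 2 higher, and the Cyp2d sum 0.897. Cyp4v and Cyp1b had ratios of 1.19 and 1.13.

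The first comparison asked how diabetes, averaged over treatments, moved the members. Cyp2j5 and Cyp2a4 fell, and these were the 2 members of 55 with an adjusted p below 0.05 by edgeR's quasi-likelihood test, 3.64% of the members beside 3.02% of all genes tested. At an unadjusted p below 0.05 there were 17 members, 8 higher and 9 lower, or 30.9% beside 19.4% of all genes. The median log2 fold change was 0.09 over the members and 0.00721 over all genes. Without D_C 1 and ND_B12 4, 10 of the 53 members still tested were called, 3 higher and 7 lower, 18.9% beside 10.2% of all genes. The 7 lower members were Cyp2d12, Cyp4a12a, Cyp4b1, Cyp2a4, Cyp2j13, Cyp2j11 and Cyp2j5, and the 3 higher ones Cyp4a32, Cyp2d22 and Cyp4a31.

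**Figure D2:**
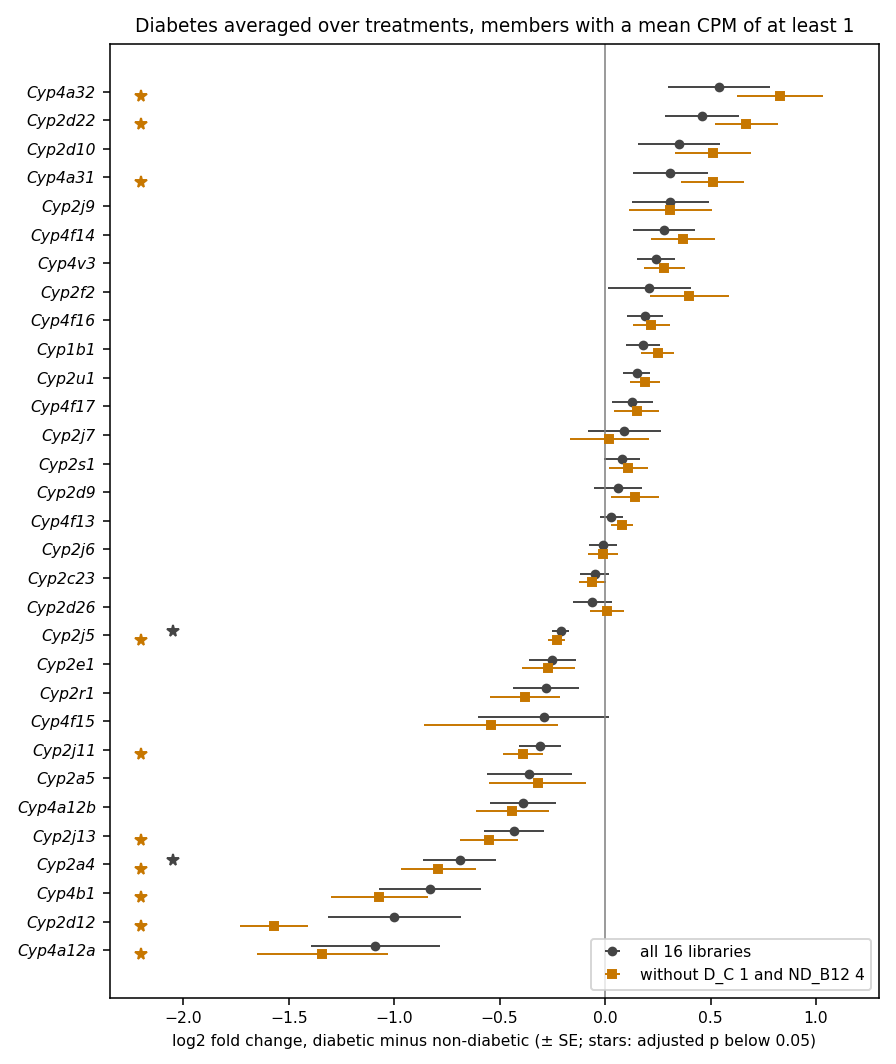
Log2 fold change of diabetic over non-diabetic kidneys averaged over treatments, for the 31 members with a mean CPM of at least 1, with bars of 1 SE. Circles use all 16 libraries and squares leave out D_C 1 and ND_B12 4, and stars mark an adjusted p below 0.05, held by Cyp2j5 and Cyp2a4 in the first fit and by 10 members in the second.

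Cyp2j5, which makes epoxides of arachidonic acid in the proximal tubule, fell by a small amount that was even across libraries. It had 98279, 109930, 111573 and 106617 normalized counts in ND_C 1 to 4 and 109709, 106936, 110158 and 100709 in ND_B12 1 to 4. In D_C 1 to 4 it had 92756, 88685, 92326 and 95243, and in D_B12 1 to 4 88552, 95833, 88695 and 94575. All 8 diabetic libraries lay below all 8 non-diabetic ones, D_C 1 included, and no other member separated the groups in this way. This held for 0.386% of all genes. On the log2 scale the difference was -0.21 ± 0.0411 (SE, n = 8 against 8, adjusted p = 0.0168 by edgeR), and -0.23 without the doubtful libraries. The date of day 21 held ND_B12 2 to 4 and D_C 1, and D_C 1 was the lowest of these. This is 1 diabetic library, whose identity was in doubt, so date and diabetes could not be told apart here. With the label day as a covariate the adjusted p was 0.309. In untreated kidneys the log2 fold change was -0.21 ± 0.0581 (adjusted p = 0.0739 by edgeR) and in B12-treated kidneys -0.22 ± 0.0581 (adjusted p = 0.0766 by edgeR).

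Cyp2a4, a steroid hydroxylase of male kidney, fell more but varied more. Its normalized counts were 28314, 29022, 28886 and 41832 in ND_C 1 to 4 and 40546, 28455, 31421 and 21208 in ND_B12 1 to 4. They were 25127, 11225, 29997 and 22007 in D_C and 17725, 18126, 13128 and 18992 in D_B12. The lowest were D_C 2 and D_B12 3, and the D_B12 libraries lay below all others except D_C 2. The diabetic minus non-diabetic difference was -0.69 ± 0.174 (adjusted p = 0.0437 by edgeR), and the call was made in 8 of 23 alternatives. Its near copy Cyp2a5, a coumarin hydroxylase, had -0.36 ± 0.202 (adjusted p = 0.358 by edgeR), with 98.5% identity between the pair.

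Cyp4b1 and Cyp4a12a had lower means in diabetic kidneys by larger amounts, but did not pass the adjusted test with all 16 libraries. Cyp4b1 had 237828, 240197, 225589 and 161045 normalized counts in ND_C and 275712, 263782, 260903 and 148426 in ND_B12. It had 225649, 45476, 150486 and 146643 in D_C and 111883, 131924, 71386 and 139967 in D_B12. D_C 1 lay among the non-diabetic libraries, ND_B12 4 and ND_C 4 lay near the diabetic ones, and D_C 2 was the lowest. The fitted log2 change was -0.83 ± 0.243 (adjusted p = 0.0732 by edgeR), and -1.07 ± 0.228 without D_C 1 and ND_B12 4 (adjusted p = 0.00934). Without that pair the diabetic and non-diabetic libraries did not overlap.

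Cyp4a12a, an arachidonic acid ω-hydroxylase that androgen induces in male mouse kidney, followed a similar order. It had 11584, 19069, 17086 and 6143 normalized counts in ND_C and 17054, 14198, 16194 and 8989 in ND_B12, against 11216, 2031, 5412 and 8842 in D_C and 6513, 5682, 3495 and 8925 in D_B12. ND_C 4 and ND_B12 4 lay within the range of the diabetic libraries. Expressed as log2, the change was -1.09 ± 0.305 (adjusted p = 0.0651 by edgeR), and -1.34 ± 0.311 without the pair, where it was called. Its near copy Cyp4a12b had -0.39 ± 0.156 (adjusted p = 0.186 by edgeR), with D_C 2 the lowest library at 1330 normalized counts. The copies differ at 22 coding positions. The split of their counts rests on these and on any differences in untranslated bases, which were not compared.

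**Figure D3:**
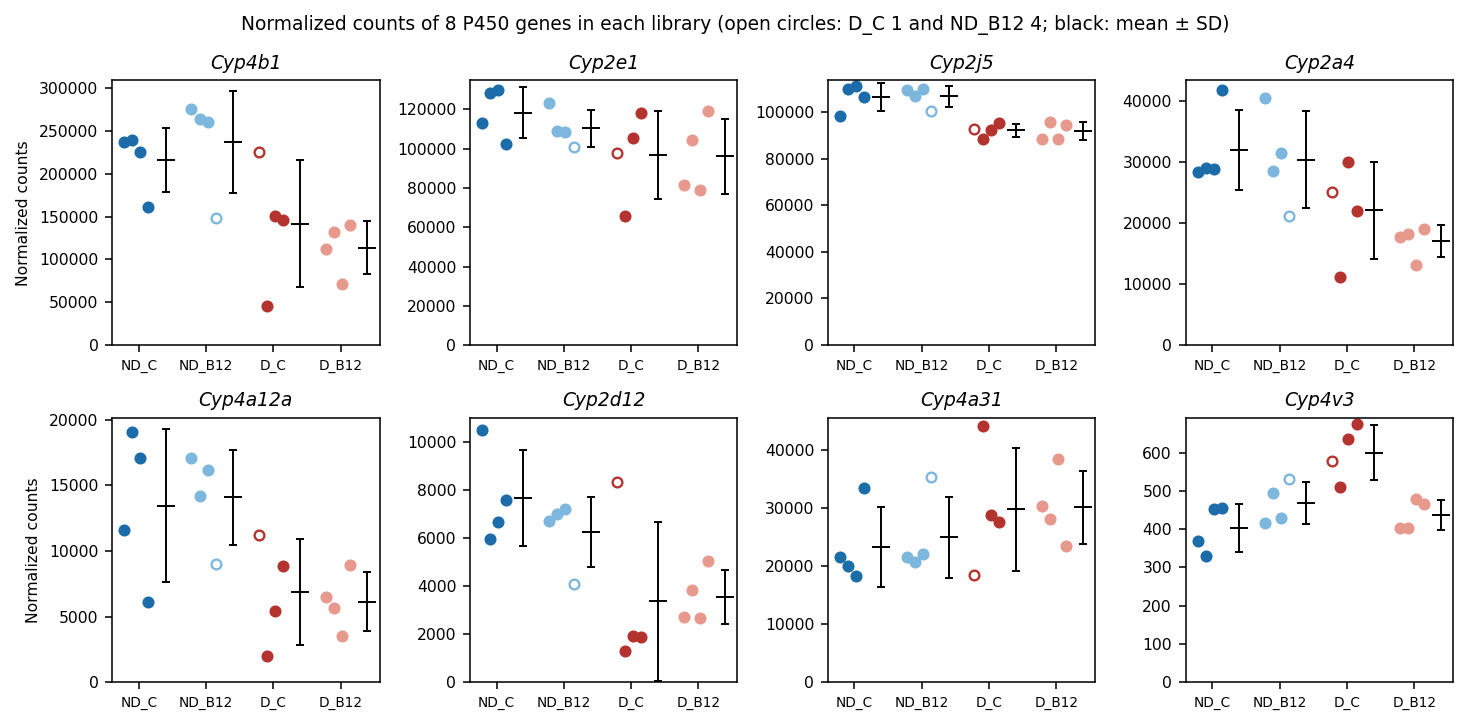
Normalized counts of 8 members in each library of the 4 labelled groups, with the mean and SD in black and open circles for D_C 1 and ND_B12 4. Cyp2j5 is lower in all 8 diabetic libraries, Cyp2d12 in D_C 1 stands at 8323 above the other D_C libraries, and Cyp4v3 has its highest mean in D_C.

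Cyp2d12 was the member on which the doubtful libraries bore most. It had 10474, 5958, 6651 and 7598 normalized counts in ND_C and 6695, 6981, 7188 and 4091 in ND_B12, against 8323, 1313, 1918 and 1899 in D_C and 2701, 3825, 2665 and 5043 in D_B12. D_C 1 lay among the non-diabetic libraries, far above D_C 2 to 4, and ND_B12 4 lay among the diabetic ones. On the log2 scale the difference was -1.0 ± 0.315 (adjusted p = 0.0922 by edgeR), and -1.57 ± 0.162 without the pair (adjusted p = 0.000101). In untreated kidneys it was -1.19 ± 0.447 (adjusted p = 0.166 by edgeR) and without the pair -2.17 ± 0.241. Its relative Cyp2d9, a male-type steroid hydroxylase of liver, had means of 10089 in ND_C and 12584 in ND_B12, against 12598 in D_C and 11004 in D_B12.

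Cyp2j11 and Cyp2j13, relatives of Cyp2j5 in the same cluster, had lower means in diabetic kidneys. Cyp2j13 had a log2 fold change of -0.43 ± 0.142 (adjusted p = 0.103 by edgeR) and Cyp2j11 of -0.31 ± 0.0999 (adjusted p = 0.0945). Both passed the test without D_C 1 and ND_B12 4, at -0.55 and -0.39. The lowest library was D_B12 3 for Cyp2j13 and D_C 2 for Cyp2j11. The other members of that subfamily did not pass, and Cyp2j6 had means of 2640 normalized counts in non-diabetic and 2639 in diabetic libraries. Cyp2e1, which rises in the liver when insulin is lacking, had 114418 ± 11367 normalized counts in non-diabetic and 96396 ± 19331 in diabetic libraries (SD, n = 8). Its log2 fold change of -0.25 ± 0.112 did not pass (adjusted p = 0.237 by edgeR), and its lowest library was D_C 2 at 65568.

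Cyp4a32, Cyp2d22, Cyp2d10 and Cyp4a31 were among the members with higher means in diabetic libraries. Cyp4a31, a fatty acid hydroxylase gene of the cluster that also holds Cyp4a12a, had 21562, 19991, 18330 and 33376 normalized counts in ND_C and 21563, 20782, 22051 and 35346 in ND_B12. It had 18448, 44134, 28846 and 27570 in D_C and 30312, 28161, 38365 and 23510 in D_B12. The order was largely the reverse of that of Cyp4b1: D_C 2 and D_B12 3 were highest, D_C 1 lay with the non-diabetic libraries, and ND_C 4 and ND_B12 4 lay with the diabetic ones. The diabetic minus non-diabetic difference was 0.31 ± 0.178 (adjusted p = 0.365 by edgeR), and 0.51 ± 0.15 without the pair (adjusted p = 0.0458). For Cyp4a32 the values were 0.54 ± 0.241 (adjusted p = 0.229 by edgeR) and 0.83 ± 0.202 (adjusted p = 0.0194). As Cyp4a31 and Cyp4a32 may share reads, their changes are not read as separate results.

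Cyp2d22, the mouse gene often set beside human CYP2D6, had 1369 ± 413 normalized counts in non-diabetic and 1882 ± 555 in diabetic libraries (SD, n = 8). Its log2 fold change was 0.46 ± 0.177 (adjusted p = 0.159 by edgeR), and 0.67 ± 0.15 without the pair (adjusted p = 0.0119), when the groups no longer overlapped. Without the pair 4 members separated diabetic from non-diabetic libraries, Cyp2d22 above and Cyp2d12, Cyp2j5 and Cyp4b1 below, 7.27% of the members beside 2.72% of all genes. Cyp2d10 had 0.35 ± 0.194 and did not pass (adjusted p = 0.351 by edgeR). Without the pair Cyp2d10 (0.51), Cyp2a5 (-0.32), Cyp4a12b (-0.44) and Cyp2e1 (-0.27) were not called either, with edgeR adjusted p between 0.0895 and 0.434.

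**Figure D4:**
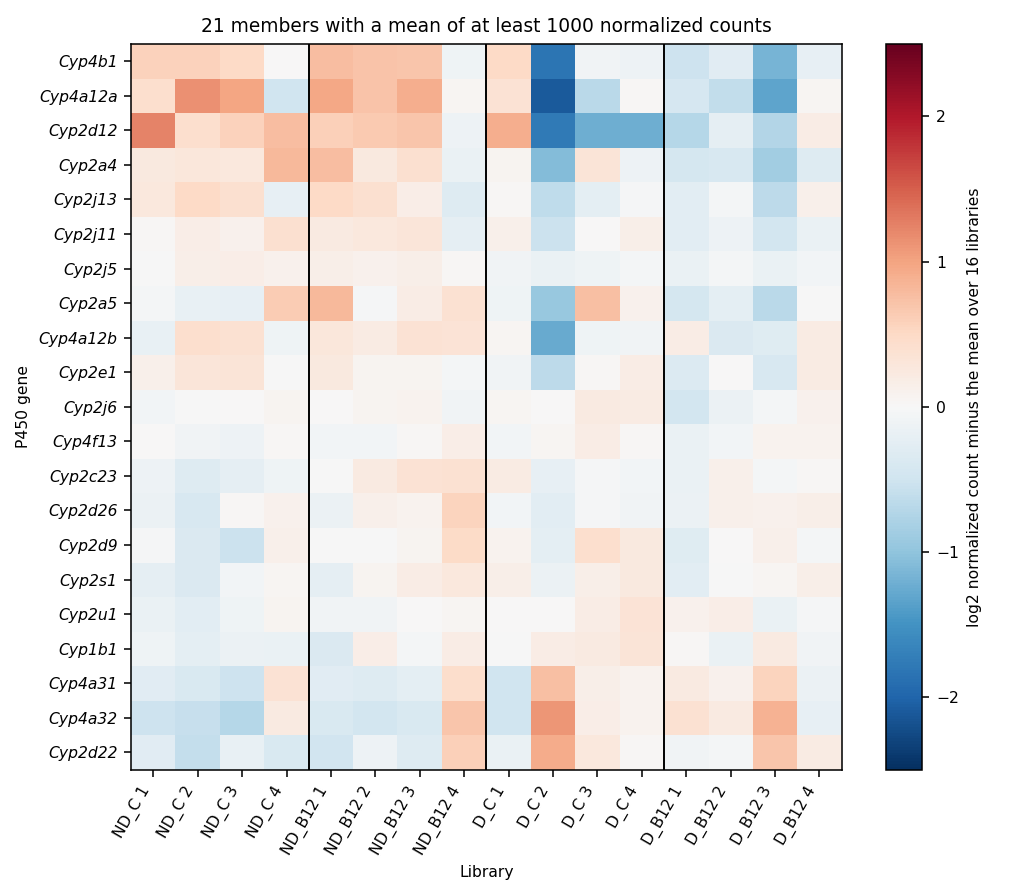
Log2 normalized count of each of the 21 members with a mean of at least 1000, minus its mean over the 16 libraries, with libraries in the order of the 4 labelled groups. D_C 2 is the lowest of all libraries for 8 of the 21 members. Cyp4a31, Cyp4a32 and Cyp2d22 are highest in D_C 2 and D_B12 3, in which Cyp4b1 is lowest.

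The libraries differed within groups as well. Among the 21 members with a mean of at least 1000 normalized counts, D_C 2 was the lowest of the D_C group for 16. In D_B12, library 3 was lowest for 9 and library 1 for 8. In ND_B12, library 4 was lowest for 9 and highest for 10. In ND_C, library 4 was highest for 12.

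Genes outside the families that are known to be androgen-responsive or male-biased in mouse kidney were read beside these members. Of 7 listed, 3 fell by the adjusted test in the comparison averaged over treatments and 0 rose, beside 3.02% of all genes called. Without the pair 5 fell, beside 10.2% of all genes. Kap, the kidney androgen-regulated protein, had a log2 fold change of -0.49 (adjusted p = 0.048 by edgeR), and Odc1, the polyamine enzyme ornithine decarboxylase, of -0.65 (adjusted p = 0.0371). Gusb, β-glucuronidase, had -0.55 (adjusted p = 0.0301 by edgeR). The median over the 7 was -0.49, beside 0.00721 over all genes. The fold change was above 0 for 1 of the 7, Aoc1. Its means were 239 in ND_C and 217 in ND_B12, against 305 in D_C and 212 in D_B12. For Odc1, D_C 1 had 39880 normalized counts, within the 29485 to 49578 of the diabetic libraries. The non-diabetic libraries began at 27690 in ND_B12 4 and 47726 in ND_B12 3 and reached 86667 in ND_C 2. D_C 1 thus lay below every non-diabetic library except ND_B12 4. The proximal tubule list had 1 of 6 markers lower by the adjusted test and 0 higher, with a summed level of 937085 to 1008568 in ND_C and 970244 to 1086940 in ND_B12, against 804919 to 1053704 in D_C and 862225 to 897271 in D_B12. Lrp2, the tubular uptake receptor megalin, had at least 296866 normalized counts in every library. Slc34a1, of the same list, had 336801 to 391540 in diabetic and 398951 to 456428 in non-diabetic libraries. These ranges did not overlap, as held for 0.386% of all genes. All 6 markers of the list had a log2 fold change below 0 in the averaged comparison, with a median of -0.13.

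Among markers of other kidney cells, the comparison averaged over treatments called 0 of 5 for the straight proximal tubule, 1 of 5 (higher) for the loop and distal nephron, 0 of 3 for podocytes and 0 of 4 for endothelium. It called 1 of 4 (higher) for smooth muscle, 1 of 5 (lower) for macrophages and 1 of 5 (lower) for B and T cells. Over all genes 3.02% were called. Adipocyte markers gave 0 of 4, though Adipoq ranged from 0.0 to 1108 normalized counts between libraries, and the single adrenal marker tested was not called. Without the pair more markers were called, beside 10.2% of all genes. These were 1 higher and 3 lower for the straight proximal tubule, 1 higher and 2 lower for the loop and distal nephron, and 1 lower for the proximal tubule. A further 1 was higher for podocytes, 2 for endothelium and 1 for smooth muscle, while 4 were lower for macrophages and 3 for B and T cells. The part of these markers in the members' values was not tested.

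Diabetes in untreated kidneys called 1 of 55 members, 1.82% beside 1.66% of all genes. This was Cyp4v3, a fatty acid hydroxylase whose human counterpart is mutated in Bietti crystalline dystrophy of the retina. It had 370, 330, 454 and 456 normalized counts in ND_C and 416, 495, 429 and 531 in ND_B12, against 577, 510, 637 and 674 in D_C and 402, 403, 478 and 465 in D_B12. All D_C libraries, D_C 1 included, lay above all ND_C and all D_B12 libraries. The log2 fold change of D_C over ND_C was 0.57 ± 0.127 (adjusted p = 0.0408 by edgeR), and 0.59 without the pair. The smallest p that an exact permutation test of 4 libraries against 4 can give, 0.0286, was reached. In B12-treated kidneys the log2 fold change of diabetes was -0.1 ± 0.128 (adjusted p = 0.735 by edgeR).

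Other members in this comparison were read without a call. At an unadjusted p below 0.05 there were 17 members, 12 higher and 5 lower, 30.9% beside 18.6% of all genes. Cyp1b1, an oxidase of estrogens and polycyclic hydrocarbons, had 3561 ± 149 normalized counts in ND_C and 4566 ± 441 in D_C (SD, n = 4) with no overlap. Its log2 fold change was 0.36 ± 0.112 (adjusted p = 0.1 by edgeR), and without the pair 0.42 ± 0.109, where it was called (adjusted p = 0.032). Cyp1b1, Cyp2d22 and Cyp4v3 lay higher and Cyp2j5 lower in every D_C than in every ND_C library, 7.27% of the members beside 9.44% of all genes. Without the pair 8 of 53 members were called, 6 higher and 2 lower, 15.1% beside 8.57% of all genes. The higher ones were Cyp1b1, Cyp2a12, Cyp2d22, Cyp3a11, Cyp4f16 and Cyp4v3, and the lower ones Cyp2d12 and Cyp2j5. Of these, Cyp2a12 and Cyp3a11 are typical of liver. Cyp2a12 was at 0 in all ND_C libraries and reached the minimum of summed counts through the other groups alone. Its call rests partly on that selection and is not read as a result.

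Diabetes in B12-treated kidneys called 0 members by edgeR, beside 0.823% of all genes. DESeq2 called 3, but its share over all genes is not given here, so that count is not read as a result about the members. At an unadjusted p below 0.05 there were 7 members, all lower, 12.7% beside 17.0% of all genes. Among them Cyp4b1 had a log2 fold change of -1.06 ± 0.345 (adjusted p = 0.128 by edgeR). Without the pair Cyp2d12 and Cyp2j5 were called, 3.77% of the members beside 2.8% of all genes.

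The question of whether B12 moved the members gave few changes. In diabetic kidneys 0 members were called by edgeR, beside 0.0% of all genes, and 3 had an unadjusted p below 0.05, 5.45% beside 13.6%. DESeq2 called 1. Cyp4v3 was lower in D_B12 (437 ± 40.3 normalized counts) than in D_C (599 ± 71.6), and the log2 fold change was -0.45 ± 0.127 (adjusted p = 0.142 by edgeR). Cyp2f2, known as the naphthalene-activating enzyme of mouse airway, had 177, 248, 182 and 249 in D_C and 275, 288, 337 and 438 in D_B12. These groups did not overlap, and the log2 fold change was 0.64 ± 0.278 (adjusted p = 0.321 by edgeR). Along with Cyp2c38, this made 3 members without overlap, 5.45% beside 6.58% of all genes. By the naming rule, which takes 3 members in each direction at a mean CPM of at least 1, the others were -0.47 for Cyp4f15, -0.39 for Cyp2a5, 0.22 for Cyp4a12b and 0.18 for Cyp2d26, with edgeR adjusted p between 0.595 and 0.723. Cyp2d12 had 0.08 ± 0.443 and, without the pair, 1.06 ± 0.232 (adjusted p = 0.0495 by edgeR), a value that turns on D_C 1, and it was the 1 member called without the pair, 1.89% beside 0.87% of all genes.

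In non-diabetic kidneys 0 members were called by either tool, and 4 had an unadjusted p below 0.05, 7.27% beside 7.62% of all genes. The smallest p belonged to Cyp2c23, a renal arachidonic acid epoxygenase. It had 1691, 1486, 1597 and 1719 normalized counts in ND_C and 1855, 2177, 2394 and 2414 in ND_B12, with every B12 library higher. The fitted log2 change was 0.45 ± 0.0987 (unadjusted p = 0.000326, edgeR adjusted p = 0.57). Averaged over diabetic states B12 called 0 members by edgeR and by DESeq2, and 2 had an unadjusted p below 0.05, 3.64% beside 5.2% of all genes. The interaction of diabetes and B12 called 0 by edgeR, beside 0.0% of all genes, and 5 members had an unadjusted p below 0.05, 9.09% beside 16.1%. By DESeq2 it called 1, for which the share over all genes is likewise not given. For Cyp4v3 the interaction was -0.68 ± 0.18 (adjusted p = 0.098 by edgeR).

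Members typical of liver were close to the limit of detection. Cyp2c29, a hepatic epoxygenase, had 0.0, 0.0, 26.1 and 7.68 normalized counts in ND_C and 4.37, 67.5, 33.6 and 34.8 in ND_B12, against 4.24, 6.58, 48.0 and 82.5 in D_C and 20.1, 13.6, 52.4 and 31.6 in D_B12. Cyp3a11, a major drug-oxidising enzyme of liver, had 7.68 to 24.9 in ND_C and 15.3 to 89.0 in ND_B12, against 0.0 to 139 in D_C and 23.1 to 110 in D_B12. For both, D_C 4 was the highest of all libraries, D_B12 3 was the highest of its group and D_C 1 was at or near 0. Cyp2c50, Cyp2c37, Cyp2c54, Cyp1a2, Cyp2a12 and Cyp3a25 were likewise highest in D_C 4 or D_B12 3. Cyp2a12 and Cyp3a25 were at 0 in all ND_C libraries. They reached the minimum of summed counts through the other groups alone, so their contrast with ND_C rests partly on that selection. In D_C 1 to 4 Cyp2a12 had 0.0, 7.52, 28.4 and 36.9 normalized counts, and Cyp3a25 0.0, 11.3, 0.0 and 36.1. With all libraries neither was called in untreated kidneys (adjusted p = 0.0891 and 0.205 by edgeR).

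**Figure D5:**
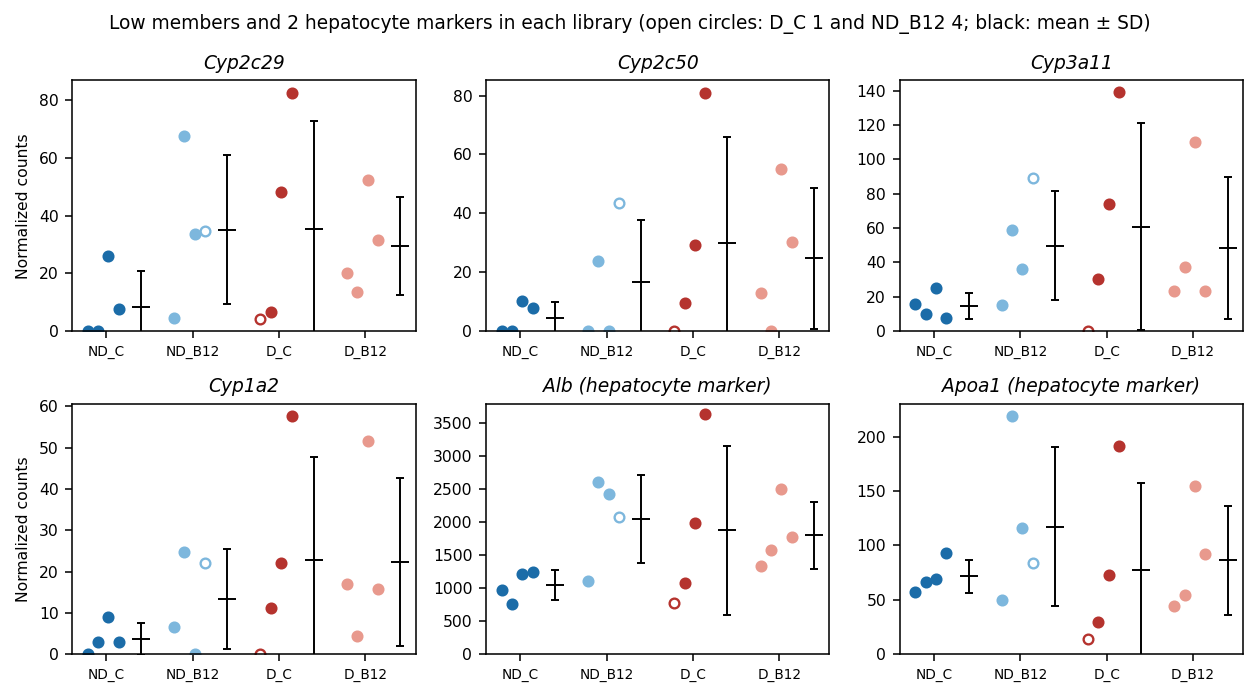
Normalized counts of 4 members typical of liver and of the hepatocyte markers Alb and Apoa1 in each library of the 4 labelled groups, with the mean and SD in black and open circles for D_C 1 and ND_B12 4. Alb is highest in D_C 4 at 3636 and lowest in ND_C 2 at 757.

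Hepatocyte markers varied between libraries and not all in the same order. Alb, serum albumin, had 783, 1085, 1988 and 3636 normalized counts in D_C 1 to 4 and 2498 in D_B12 3, and Apoa1 had 14.4 in D_C 1, 191 in D_C 4 and its highest value, 219, in ND_B12 2. Fgb, also of the list, had 18.6 in D_C 1 and 129 in D_B12 3, and its highest value, 199, in D_C 4. Serpina1a, an antitrypsin gene, was instead highest in D_C 1 at 2696, and Ttr, transthyretin, in ND_C 3 at 7955. Over the list of 5 markers, 0 rose and 1, Ttr, fell by the adjusted test in the comparison averaged over treatments, beside 3.02% of all genes. The summed level of the 5 markers ran from 7979 to 11464 in ND_C and 6604 to 10876 in ND_B12. It ran from 5427 to 9494 in D_C and 5340 to 6895 in D_B12. Most of this sum came from Ttr and Serpina1a, with ND_C means of 6042 and 2046. Alb, Apoa1 and Fgb had ND_C means of 1043, 71.6 and 76.5, so the sum says little about them. Their part in the liver-type members was not tested. The fold changes of these members carried large errors, such as 2.06 ± 0.909 on the log2 scale for Cyp3a11 in untreated kidneys (adjusted p = 0.235 by edgeR) and 2.59 ± 1.17 for Cyp1a2 (adjusted p = 0.246). Without D_C 1 and ND_B12 4, Cyp3a11 was called in untreated kidneys at 2.47 ± 0.664 (adjusted p = 0.0347 by edgeR), as was Cyp2a12 (adjusted p = 0.0294), while Cyp1a2 was not at 3.01 ± 1.04 (adjusted p = 0.0898). The call of Cyp2a12 rests partly on its selection by summed counts.

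The remaining members that lead a subfamily did not pass in any comparison. Cyp1a1 had 58.5 to 79.3 normalized counts in ND_C and 42.5 to 79.7 in ND_B12, against 33.9 to 110 in D_C and 40.1 to 134 in D_B12. Cyp2b10, the target of the receptor CAR, ranged from 0.0 to 109. Cyp2r1, a vitamin D hydroxylase, had 134 ± 18.7 in non-diabetic and 110 ± 29.1 in diabetic libraries (SD, n = 8), and Cyp2t4 had 47.2 ± 10.7 and 59.0 ± 12.8. Cyp2s1, an epithelial member, had 1161 ± 174 and 1227 ± 142, and Cyp2u1, which hydroxylates long-chain fatty acids, 1323 ± 104 and 1472 ± 157. Cyp4f13, the highest of the leukotriene-metabolising Cyp4f genes, had 2092 ± 135 and 2144 ± 165.

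The partners of the P450 system were read in the same way. Of 11 genes for electron supply, heme and epoxide hydrolysis, 1 rose and 1 fell by the adjusted test in the comparison averaged over treatments, beside 3.02% of all genes, and without the pair 2 rose and 1 fell, beside 10.2%. Ephx1, the microsomal epoxide hydrolase, rose by 0.81 on the log2 scale in that comparison (adjusted p = 0.0266 by edgeR). Its normalized counts were 2171 ± 399 in ND_C and 3167 ± 1247 in ND_B12, against 5056 ± 1429 in D_C and 4217 ± 973 in D_B12 (SD, n = 4). The difference was 1.22 ± 0.254 in untreated kidneys (adjusted p = 0.0349 by edgeR) and 0.41 ± 0.251 in B12-treated ones (adjusted p = 0.43). Cyb5a, cytochrome b5, which can donate an electron, fell by 0.27 on the log2 scale (adjusted p = 0.0382 by edgeR). Por had -0.04 ± 0.0538 (adjusted p = 0.728 by edgeR). Ephx2, the soluble hydrolase that clears epoxides of arachidonic acid, had -0.18 ± 0.0681 (adjusted p = 0.148 by edgeR).

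Of 16 listed transcriptional regulators 0 rose and 3 fell in the averaged comparison without the pair, beside 10.2% of all genes. With all libraries 0 rose and 1 fell by the adjusted test, beside 3.02%. This was Ppara, the fatty acid receptor that induces Cyp4a genes, at -0.28 ± 0.0656 (adjusted p = 0.0346 by edgeR). Its means were 6959 in ND_C and 9148 in ND_B12, against 7406 in D_C and 5857 in D_B12. The log2 difference was 0.09 ± 0.0927 in untreated kidneys (adjusted p = 0.668 by edgeR) and -0.65 ± 0.0931 in B12-treated ones (adjusted p = 0.0169). The interaction was -0.74 ± 0.131 (adjusted p = 0.0554 by edgeR). Ahr had 0.11 ± 0.071 (adjusted p = 0.412 by edgeR). Of 8 tested genes for the release and other oxidation of arachidonic acid, 1 rose and 1 fell without the pair, beside 10.2% of all genes. With all libraries 0 rose and 1 fell, beside 3.02%. This was Tbxas1, thromboxane synthase, with 842 ± 37.6 normalized counts in ND_C and 709 ± 160 in ND_B12, against 434 ± 248 in D_C and 356 ± 45.0 in D_B12 (SD, n = 4). D_C 1 had 778, within the non-diabetic range, and ND_B12 4 had 512, between the other non-diabetic and the other diabetic libraries.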

How the data were processed

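Kidney RNA of 16 mice, 4 in each of 4 labelled groups, was sequenced as paired reads of 50 bases after a total RNA library preparation. Alignment by the authors used STAR, the GRCm39 build and GENCODE vM35, and they deposited estimated counts per gene and per transcript made with StringTie and its prepDE script. The version of bcl2fastq was 2.20.0 in the submitters' processing notes. These estimated counts were whole numbers already, so rounding changed nothing, and 0 columns were left without a library. prepDE multiplies coverage by a read length that was not given in the sources used here, so the scale of the counts is nominal.

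Library totals ran from 65271308 to 91771136. Genes with at least 100 counts over all libraries, 25408 of 57186, were tested with edgeR 4.0.16 in R 4.3.3 (glmQLFit and glmQLFTest, TMM, a mean per group, all libraries in 1 fit, 12 residual degrees of freedom, common biological coefficient of variation 0.201) with Benjamini-Hochberg adjustment over all genes and a threshold of 0.05. The 7 comparisons are named in the report. Tested on counts simulated for diabetes in untreated kidneys, with 200 of 25237 genes changed by 1 on the log2 scale, the fit recovered 170 and made 5 false calls. The simulation gave every gene the same biological coefficient of variation, changed no gene of low mean count and held no outlying or mislabelled library. The share recovered therefore does not carry over to the members. Counts were normalized by size factors from the median of ratios. Levels per length are transcript counts scaled to CPM and divided by vM39 transcript length in kilobases. Coding identity was the share of equal positions in a global alignment of canonical coding sequences. Alternatives were DESeq2 1.42.0, upper-quartile scaling, other filters, the label day as a covariate, a replicate block, the compared groups alone, each library left out, and, added after the data had been seen, both doubtful libraries left out.

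The members and the gene lists were chosen with earlier results of these data known. Members were named where the adjusted test called them, where they had the highest level per length of their subfamily, and where they had the 3 largest increases or decreases, at a mean CPM of at least 1, in untreated diabetes or in B12 in diabetic kidneys. Others are named as examples chosen after their values were seen. The labels call the libraries biological replicates, each taken as 1 mouse. Group means given with the study served only to see which libraries they matched. The replicate numbers were tested as pairs by the correlation of same-numbered libraries in their deviations from the group means, which lay between -0.183 and 0.168 over 24 pairs and passed 0.1 in 3, so they were not treated as pairs.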

Additional observations from a re-analysis of the deposited data

Results flagged for a closer look

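Within the groups of 4 libraries of the 27 named members, a library stood apart from the other 3 by Dixon's criterion in 13 of 108 combinations of member and group. Chance alone flags about 1 in 20. D_C 1 stood above the other D_C libraries for Cyp2d12 (8323 normalized counts) and below them for Cyp2d10 (83.0). ND_B12 4 stood apart in its group for 5 members: lower for Cyp2d12 (4091) and Cyp4b1 (148426), and higher for Cyp2d9 (15814), Cyp4a31 (35346) and Cyp4a32 (3614). ND_C 4 stood above its group for Cyp2a4 (41832), Cyp2a5 (14728) and Cyp4a32 (2615). Single cases were Cyp4a12b in D_C 2 (1330, lower), Cyp2d26 in D_B12 1 (6483, lower) and Cyp3a11 in D_B12 3 (110, higher). Of the 13, 7 fell in the 2 libraries whose identity was in doubt. Related members were flagged in the same library, such as Cyp4a31 with Cyp4a32 in ND_B12 4 and Cyp2a4 with Cyp2a5 in ND_C 4. The flags are therefore not independent, and their share in the doubtful libraries was not tested.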

How the results depend on the processing

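The count of members called was small in every comparison and changed with many settings. The share of all genes called moved with the setting too, from 3.02% to 10.2% in the averaged comparison when the pair was left out. For the other settings that share is not given here, so their counts are not read as a result about the members. For diabetes averaged over treatments, called for 2 members with all libraries, DESeq2 gave 6, no filter beyond 1 count gave 1, the label day as a covariate gave 0, and leaving out D_C 1 and ND_B12 4 together gave 10. The replicate block gave 1, and leaving out a single library gave 1 to 7, with 7 without ND_B12 4 and 5 without D_C 1. For diabetes in untreated kidneys, with 1 member, DESeq2 gave 3, no filter, the day covariate and the compared groups alone gave 0, the block left it at 1, the pair left out gave 8, and single libraries left out gave 0 to 6, with 6 without D_C 1. For diabetes in B12-treated kidneys, with 0, DESeq2 gave 3, the day covariate 1, the pair left out 2, and single libraries 0 to 2, with 2 without D_C 2. For B12 in diabetic kidneys, with 0, DESeq2, the day covariate and the pair left out gave 1 each. For the interaction, with 0, DESeq2 gave 1 and the day covariate 3. Both other B12 comparisons stayed at 0. In the paired fit with the replicate block no other count changed.

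Of 40 single results followed, 33 kept their sign in every alternative and 7 changed sign in at least 1. With the label day as a covariate these were Cyp1b1 (-0.04) and Cyp2d10 (-0.3) in the averaged diabetes comparison, Cyp3a11 in untreated kidneys (-0.57), Cyp2d12 in B12-treated kidneys (0.25), and Cyp2d26 (-0.07) and Cyp4f15 (0.04) for B12 in diabetic kidneys. For B12 in diabetic kidneys Cyp2d12 also turned when D_C 2, 3 or 4 or D_B12 4 was left out, between -0.18 and -0.11, and rose to 1.08 without D_C 1. The causes of these changes were not tested. Cyp2j5 was called in the averaged comparison in 22 of 23 alternatives, with adjusted p from 5.08e-06 to 0.309, and Cyp4v3 in untreated kidneys in 13 of 24, with adjusted p from 0.00121 to 0.506. Precision from depth was least for the 20 members with a mean under 50 normalized counts, and how far depth or the spread between mice limited the calls was not tested.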

Other observations

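The transcript table gave a further view of the members. Cyp4b1, Cyp2j5 and Cyp2e1 were carried by a single leading transcript, with 98.8%, 100% and 89.5% of the transcript counts of the gene over 16 libraries. In Cyp2d12 the leading transcript held 35.8% of the counts over 7 transcripts, in Cyp2d22 52.5% over 6, and in Cyp4a31 54.4% over 4. StringTie's split between overlapping isoforms is an estimate, and no transcript was tested between groups.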
